A study of Drosophila melanogaster with 2 samples.

Results

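The genes described here encode 10 Drosophila melanogaster proteins that bind insulators or promoters or that hold such binding proteins together: Dref, Trl, M1BP, BEAF-32, CTCF, su(Hw), Cp190, mod(mdg4), Chro and pzg. They are 10 of 13945 protein-coding genes in the annotation. For each gene, peaks of CG31365 were taken when the summit, the position of highest signal, lay in the gene body or within 1000 bp of an annotated transcript start site. All coordinates are on assembly dm6. The ChIP-seq data came from 1 group of 2 biological replicates, numbered 2 and 3, of a transgenic line that stably expresses CG31365 with GFP fused to its C terminus. Whole embryos of both sexes were pooled over 0 to 24 h of development, so a peak belongs to a mixture of cell types and stages. The promoter of the fusion gene was not given in the sources used here. A free-text label names both libraries as input controls, whereas their assay and antibody labels describe ChIP; they were treated as ChIP libraries.

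Insulators are DNA elements that separate regulatory domains of a chromosome. In flies they are bound by sequence-specific proteins such as BEAF-32, CTCF and su(Hw), which bring in the BTB-domain proteins Cp190 and mod(mdg4). Promoters of broadly expressed fly genes often carry the DNA replication-related element (DRE), bound by Dref, or Motif 1, bound by M1BP, while Trl encodes the GAGA factor, which opens chromatin at promoters with GAGA repeats. Chro, a chromodomain protein, and its zinc-finger partner pzg (also called Z4) occupy the open interbands of polytene chromosomes, at many of the same promoters.

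The highest CG31365 peaks at Chro, Trl, Dref and Cp190 ranked between 122 and 421 of the 30000 called on both replicates together, that at mod(mdg4) ranked 1116, that at pzg fell just short of the reproducible set, and those at M1BP, BEAF-32, CTCF and su(Hw) ranked lower. Each replicate was deposited as 30000 ranked peaks and background regions, a further 30000 were called on both replicates together (the pooled list), and 2821 peaks passed a test of irreproducible discovery rate (IDR peaks). By signal value these are exactly ranks 1 to 2821 of the pooled list. The signal value is the peak caller's own enrichment score and is compared only within a list. Chro, Trl, Dref, Cp190 and mod(mdg4) had IDR peaks, 10 in all, under the rule for body or start site. The same 5 genes had one near a start site (1000 bp or less). Over all protein-coding genes 16.8% had an IDR summit under the rule for body or start site and 13.9% had one near a start site. The genes were chosen with earlier results of these data known, so the count of 5 in 10 is a description. All 10 genes had a pooled peak within 1000 bp of a start site, where 55.6% of protein-coding genes did, or 58.9% with the gene body included. All 10 also had a peak in the replicate 2 list (60.2% of protein-coding genes) and in the replicate 3 list (62.5%).

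**Figure D1:**
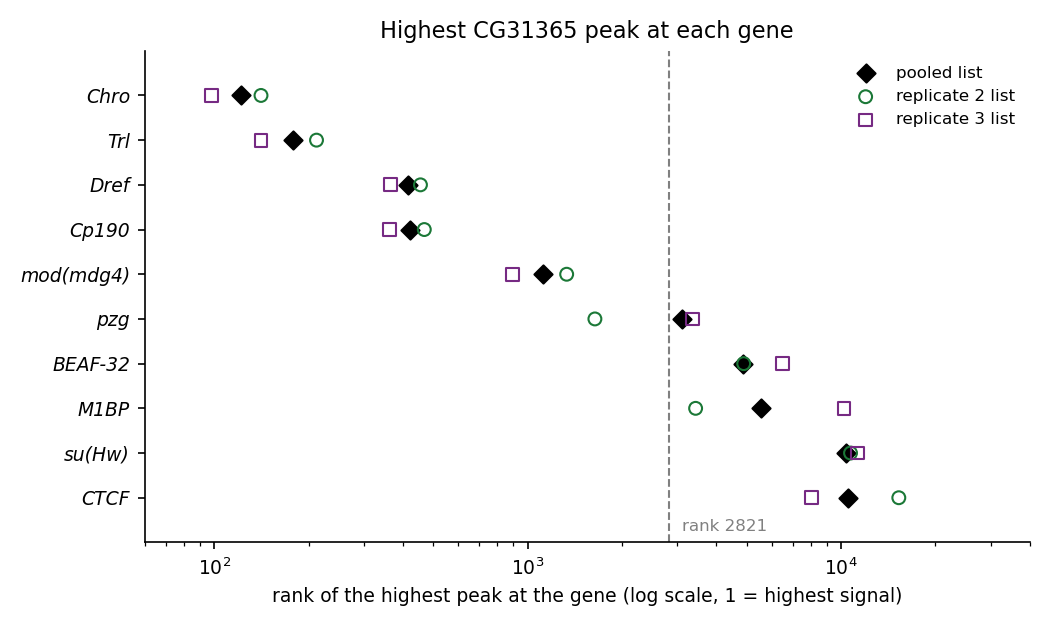
Rank of the highest peak at each of the 10 genes (log scale, 1 is the highest signal value) in the pooled, replicate 2 and replicate 3 lists of 30000 peaks. The dashed line marks rank 2821, the number of IDR peaks: Chro, Trl, Dref, Cp190 and mod(mdg4) lie to its left in all 3 lists, and pzg does so in replicate 2 only.

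The sequences between back-to-back start sites carry the promoter peaks of Dref and Cp190, and those at Chro and pzg are given with them because the summit lies beside or within them. They are written on the strand of the named gene, 5′ to 3′ towards it, with copies of CGATA on either strand (the core bound by BEAF-32) in capitals. They were read from the RefSeq copy of Release 6.
Dref and RpL13, chr2L:9967230-9967312, minus strand: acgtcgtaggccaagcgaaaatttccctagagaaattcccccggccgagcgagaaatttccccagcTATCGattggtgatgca
Cp190 and CG4338, chr3R:15275242-15275521, minus strand: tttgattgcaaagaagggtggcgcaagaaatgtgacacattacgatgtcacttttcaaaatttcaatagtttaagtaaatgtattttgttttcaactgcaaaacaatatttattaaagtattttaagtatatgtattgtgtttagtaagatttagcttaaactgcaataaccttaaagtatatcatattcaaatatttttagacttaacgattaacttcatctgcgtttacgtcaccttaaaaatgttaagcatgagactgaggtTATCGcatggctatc
Chro and Ssl1, chr3L:22878985-22879088, minus strand: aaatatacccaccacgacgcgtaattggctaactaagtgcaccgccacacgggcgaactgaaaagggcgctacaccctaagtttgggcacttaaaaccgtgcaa
pzg and CG12974, chr3L:21285963-21286098, plus strand: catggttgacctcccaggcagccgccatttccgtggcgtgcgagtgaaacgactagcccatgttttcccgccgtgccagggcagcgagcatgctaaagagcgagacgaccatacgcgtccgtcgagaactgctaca

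Dref, the DRE-binding factor gene (2L, 9964147 to 9967229, minus strand), had 1 IDR peak (2L, 9967192 to 9967401) with a signal value of 420 at rank 415. The same peak had a signal value of 210 at rank 455 in replicate 2 and of 209 at rank 365 in replicate 3, with summits 1 and 3 bp from the pooled one. It lay 68 bp upstream of the only Dref start site, in intergenic sequence, and 16 bp upstream of a start site of RpL13, a cytoplasmic ribosomal protein gene that runs the other way. The start sites are 84 bp apart, less than the 210 bp width of the peak, so the peak cannot be given to one of these genes.

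Trl (3L, 14747929 to 14761049, minus strand) had the most peaks of the set, with 4 in the IDR list and 10 in the pooled list. The highest (3L, 14759344 to 14759685) lay in an intron, 1536 bp downstream of the first start site, with a signal value of 812 at rank 179. It had a signal value of 382 at rank 212 in replicate 2 and of 439 at rank 141 in replicate 3. The next (3L, 14757128 to 14757289; signal 234, rank 1017) lay 109 bp downstream of the innermost of the 4 start sites, in the 5′ UTR of all 10 transcripts. Its rank was 1636 in replicate 2 and 703 in replicate 3. An intronic peak (3L, 14758067 to 14758450; signal 198, rank 1316) was found 297 bp before a start site that Trl shares with CG42507, and ranked 1022 and 1961 in replicates 2 and 3. The fourth (3L, 14755910 to 14756293; signal 134, rank 2479) lay in an intron 1234 bp downstream of the innermost start site. It had a summit within 100 bp in replicate 3 (rank 1734) but none in replicate 2. The nearest replicate 2 peak (3L, 14756042 to 14756417; rank 1904) overlapped it, with a summit outside that distance. At the first Trl start site itself the pooled summit, 81 bp downstream, reached only rank 8190.

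Cp190, which encodes the BTB cofactor shared by several insulator complexes (3R, 15270432 to 15275241, minus strand), had 1 IDR peak (3R, 15275254 to 15275521) with a signal value of 416 at rank 421. Its signal value was 205 at rank 468 in replicate 2 and 211 at rank 362 in replicate 3. The summit lay 105 bp upstream of the first Cp190 start site and 176 bp upstream of the start site of CG4338 on the other strand. The start of the antisense RNA gene asRNA:CR46081 was 871 bp away. This stretch of 280 bases between the start sites has a GC content of 28.9%.

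The mod(mdg4) gene (3R, 21350846 to 21377401, minus strand) encodes a BTB cofactor of su(Hw) insulators, and its many isoforms share their first exons and differ in their last ones. Some of the last exons are transcribed as separate precursors, annotated as pre-mod(mdg4) genes, and joined by trans-splicing. Of 3 IDR peaks, both of those deep in the gene stood at start sites of these precursors. The highest (3R, 21365241 to 21365624; signal 222, rank 1116) had its summit 11968 bp downstream of the mod(mdg4) start site, 55 bp from a minus-strand start site of pre-mod(mdg4)-E and 176 bp from a plus-strand start site shared by 7 precursors. The innermost (3R, 21359574 to 21359957; signal 141, rank 2280) was 2 bp from the start site shared by 8 minus-strand precursors. The third (3R, 21376245 to 21376628; signal 166, rank 1720) lay in an intron, 964 bp downstream of the mod(mdg4) start site.

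Of the 7 distinct pre-mod(mdg4) start sites, 5 had an IDR summit within 1000 bp, and these serve 20 of the 23 precursor genes. Over all protein-coding start sites 13.8% had an IDR summit that near, and of the genes 13.9% did. All 5 start sites lie near the peaks of rank 1116 or 2280. Start sites that share a peak are not separate observations, nor are precursors that share a start site. The precursors were taken up because of these peaks, so the count is a description. With the 2821 highest peaks of replicate 3 in place of the IDR list the count was 3 start sites and 10 genes, because the innermost peak ranked 2983 there. With those of replicate 2 it was 6 start sites and 23 genes. A pooled peak just outside the IDR list (3R, 21373410 to 21373793; signal 119, rank 3063) was 27 bp from the start site of the other 3. It was at rank 1518 in replicate 2 and at rank 14740 in replicate 3. At the start of mod(mdg4) itself the pooled summit, 55 bp downstream in the 5′ UTR, had rank 6417, with 4119 in replicate 2 and 17892 in replicate 3. Among the 2821 highest peaks of replicate 2 alone mod(mdg4) had 4, and among those of replicate 3 alone it had 1, with none near its own start site.

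**Figure D2:**
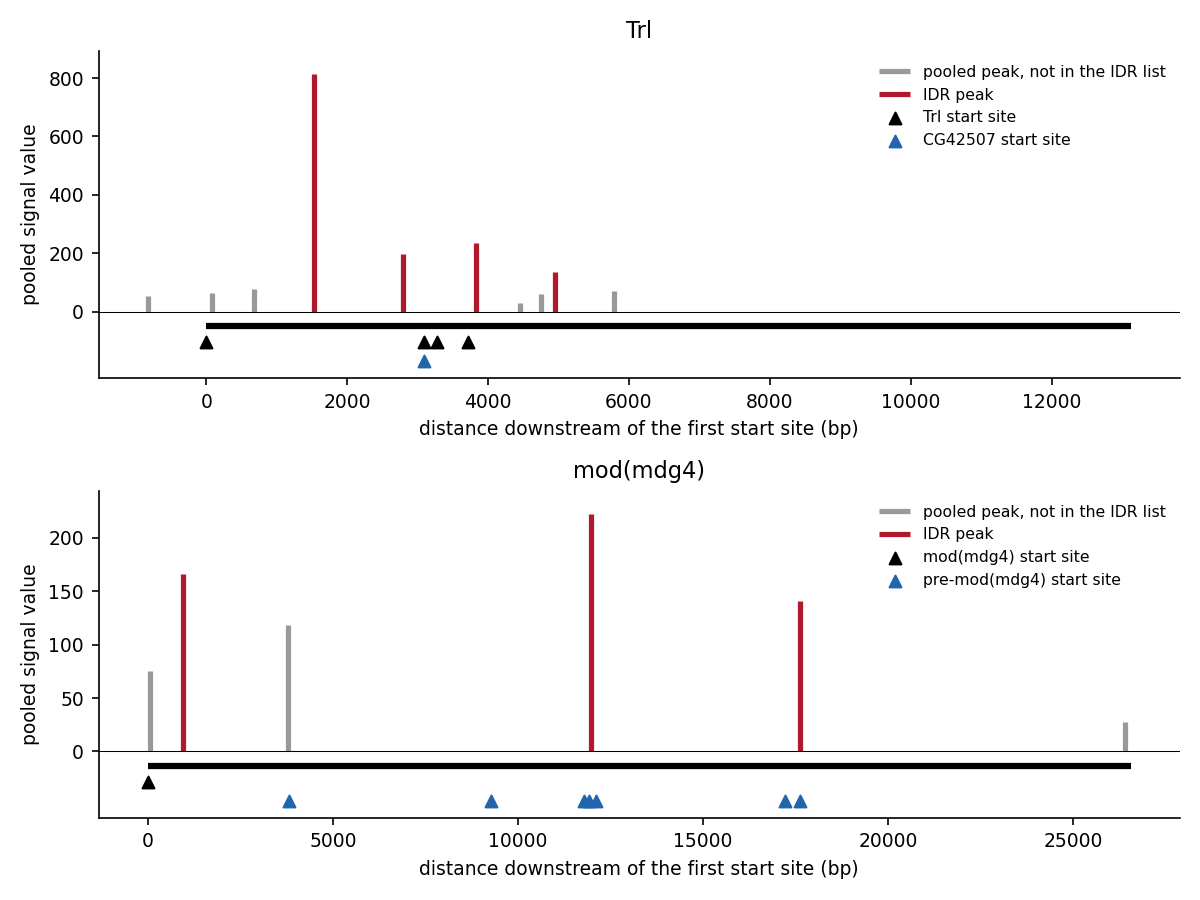
Pooled signal value (vertical axis) of each pooled peak at Trl and mod(mdg4) against distance downstream of the first start site in bp. The black bar is the gene, black triangles are its own start sites, and blue triangles are start sites of CG42507 or of pre-mod(mdg4) genes; the Trl peak of signal 812 stands 1536 bp from the first start site, and the mod(mdg4) peaks of signal 222 and 141 stand at blue triangles.

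Chro (3L, 22873702 to 22878984, minus strand) had the highest peak of the set (3L, 22878750 to 22879064), with a signal value of 1210 at rank 122. The signal value was 582 at rank 141 in replicate 2 and 631 at rank 98 in replicate 3. The summit lay 82 bp downstream of the first Chro start site, in the 5′ UTR of 1 transcript, and 187 bp upstream of a start site of Ssl1, which encodes a subunit of the transcription factor TFIIH and runs the other way. Of 1938 protein-coding genes with an IDR summit near a start site (1000 bp or less), 81 had one of higher rank than Chro, against 332 for Dref and 336 for Cp190. For Trl it was 779, and for mod(mdg4) it was 1225.

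The remaining 5 genes had pooled peaks within 1000 bp of a start site, with no IDR peak. At pzg (3L, 21286099 to 21290310, plus strand) the pooled peak (3L, 21285786 to 21286169; signal 118, rank 3097) stood 121 bp before the start site and 16 bp upstream of that of CG12974, which runs the other way, at a distance of 137 bp. It was at rank 1639 in replicate 2. The highest peak of the gene in replicate 3, at rank 3360, had its summit 267 bp upstream, over 100 bp from the pooled summit. With the 2821 highest peaks of replicate 2 in place of the IDR list, pzg had a peak, and with those of replicate 3 it had none. The lowest signal in the IDR list was 124. The peaks of the set nearest to that limit were the Trl peak of signal 134 inside it, and the mod(mdg4) peak of 119 and the pzg peak of 118 outside it.

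BEAF-32, the gene of the boundary element-associated factor (2R, 14770469 to 14772630, plus strand), had a pooled peak 50 bp upstream of its first start site (2R, 14770227 to 14770610; signal 89.9, rank 4848). Its rank was 4891 in replicate 2 and 9150 in replicate 3. The M1BP gene (3R, 8729790 to 8731698, minus strand) had one 135 bp upstream (3R, 8731641 to 8732024; signal 82.5, rank 5536), at ranks 3435 and 10224. The 2 insulator zinc-finger genes came last of the set in the pooled and replicate 2 lists, while in replicate 3 CTCF stood ahead of M1BP. For su(Hw) (3R, 14304455 to 14308589, minus strand), whose protein binds the gypsy insulator, a peak 415 bp downstream (3R, 14307982 to 14308365; signal 54.6) had rank 10399, and 10721 and 11262 in replicates 2 and 3. For CTCF (3L, 7353578 to 7356713, minus strand), a peak 314 bp downstream in the coding exon (3L, 7356207 to 7356590; signal 54.1) had rank 10536, and 19608 and 8034 in the replicates. Lists of this fixed length hold background regions among their low ranks. The nearest IDR summit outside the rule was 4309 bp from su(Hw), 8386 bp from CTCF, 14254 bp from pzg, 26439 bp from BEAF-32 and 53010 bp from M1BP.

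The ranks of single peaks differed between the replicates to varying degrees. In order of their highest pooled peak, Dref and Cp190 (420 and 416) were next to each other and changed places in replicate 3, while Chro and Trl kept the first and second place in both replicates. Of the 10 IDR peaks of the set, 9 had a summit within 100 bp in both replicate lists, where 96.1% of all 2821 IDR peaks did. The ranks of these 9 differed between replicates by a median of 1.48 times and at most 2.33 times, beside a median of 1.44 times over 2711 matched IDR peaks. The IDR peaks are the highest of a list called on these same replicates, so this closeness is a description of the list and not a result about the genes. Of all 26661 pooled peaks that overlap no IDR peak, down to rank 30000, 32.9% were matched in both replicates. Of the 18 other pooled peaks of the set, 15 were. The 18 include a Trl peak of rank 9385 that overlaps an IDR peak and so is not among the 26661. No share was computed over peaks of like rank, so these shares are not a comparison. The ranks of the 15 differed by a median of 2.18 times. They ran from 1.03 times at the first start site of Trl and 1.05 times at su(Hw) to 5.89 times at a Trl intronic peak (3L, 14760184 to 14760567) and 9.71 times at the mod(mdg4) peak of rank 3063.

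**Figure D3:**
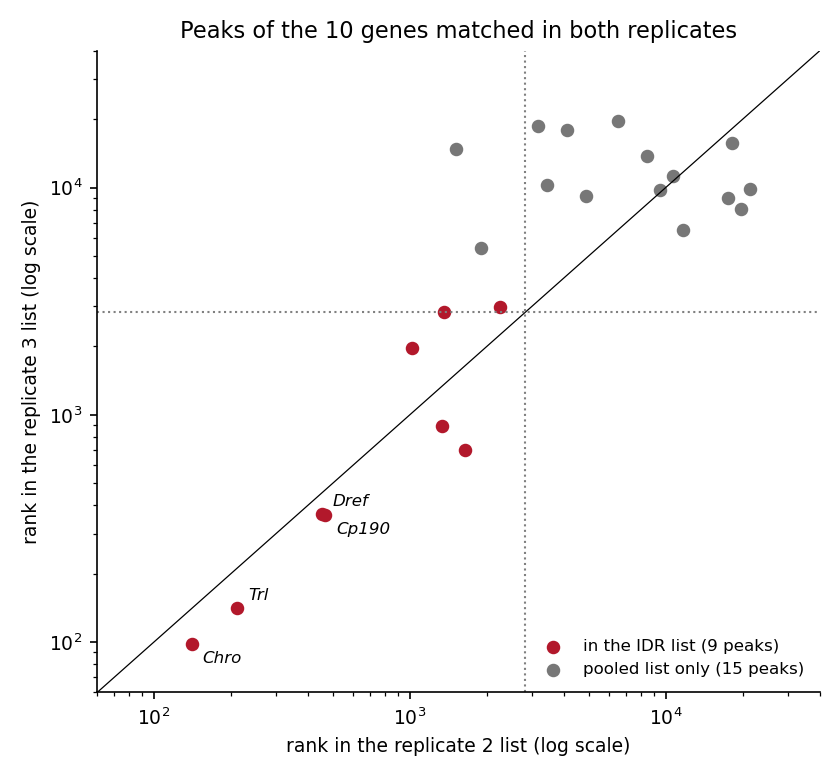
Rank in the replicate 2 list (horizontal, log scale) against rank in the replicate 3 list (vertical, log scale) for the 24 pooled peaks of the 10 genes with a summit within 100 bp in both lists. Dotted lines mark rank 2821 and the solid line equal ranks. The 9 IDR peaks (red), which are among the highest of the pooled list, differ by at most 2.33 times. The 15 others (grey) differ by 1.03 to 9.71 times.

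Back-to-back promoters were common in the set. Of the 10 genes, 6 had a start site of another protein-coding gene on the other strand within 500 bp upstream: Dref with RpL13, Chro with Ssl1, pzg with CG12974, Cp190 with CG4338, M1BP with CG8202 at 393 bp, and su(Hw) with Polr2I, an RNA polymerase II subunit gene, at 500 bp. Over all protein-coding genes 27.4% had such a partner. IDR summits lay near a start site (1000 bp or less) at 3 of these 6 and at 2 of the other 4. In the whole annotation the share was 20.6% for genes with such a partner and 11.4% for those without. For Dref, Chro and Cp190 the summit was within 1000 bp of both start sites of the pair, so each peak counts for both genes.

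The genes also differed in length, and long genes hold more summits. Trl and mod(mdg4) span 13121 and 26556 bp, and 37.8% of the 1314 protein-coding genes of over 10000 and up to 30000 bp had an IDR summit under the rule. The share with 3 or more, as at these genes, was 6.09% among genes of that length and 1.37% of all genes. The other 8 genes span up to 5283 bp. Of these 3 had an IDR summit, where 11.1% of 10731 genes of up to 5500 bp did.

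Words bound by the proteins of this set were looked for within 100 bp of the summits, on both strands, with overlapping copies counted. The words were TATCGATA (DRE), CGATA, which also lies within it, GAGAG for the GAGA factor, AGGNGGC for CTCF, TGCATA for su(Hw), and Motif 1. AAGCAGT, a word taken from earlier results on these same data, was added and supports nothing. DRE was at 0 of the 10 IDR summits of the set (3.01% of all IDR summits, 1.26% of low-ranked summits and 6.45% of protein-coding start sites). CGATA was at 4 of 10, those of Dref, Cp190 and Chro and the innermost of mod(mdg4). Its share was 27.9% of all IDR summits, 23.9% of low-ranked summits and 37.1% of protein-coding start sites. GAGAG was at 2 (29.4% of all IDR summits), TGCATA at 1 (14.6%), AAGCAGT at 2 (13.2%), and AGGNGGC (6.66%) and Motif 1 (1.03%) at 0. The highest Trl summit, with a GC content of 25.4% over 201 bp, held none of them. These are matches of letters, and with 10 summits the counts are descriptions.

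Copies near the summits are shown on the strand of the gene, 5′ to 3′, with the word, on either strand, in capitals. The CGATA copies 41 and 48 bp from the innermost mod(mdg4) summit are not shown.
Chro, CGATA 8 bp from the summit, chr3L:22878880-22878909: gttagtttaaagcTATCGacaggcaataca
Trl, AAGCAGT 44 bp from the summit of rank 1017, chr3L:14757257-14757286: agggagttggaaAAGCAGTggcgtcgtgga
mod(mdg4), AAGCAGT 21 bp from the innermost summit, chr3R:21359773-21359802: ttcgctaacagcACTGCTTgtgctgctgtt
mod(mdg4), TGCATA on both strands at the summit of rank 1116, chr3R:21365421-21365448: ccaataccaaTATGCATAttttgctata
mod(mdg4), GAGAG 14 bp from the summit of rank 1720, chr3R:21376409-21376435: acgcgtgccaGAGAGAGacaactgcag
Trl, GAGAG 40 bp from the summit of rank 1316, chr3L:14758202-14758231: tgccgtcttgCTCTCCTCTCcatcctaaaa
The highest Trl summit, where no word matched, has this sequence within 50 bp, chr3L:14759463-14759563: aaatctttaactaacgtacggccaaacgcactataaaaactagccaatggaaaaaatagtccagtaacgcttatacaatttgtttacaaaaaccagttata

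TATCGATA also lay within 100 bp of the first start site of Cp190, CTCF and mod(mdg4), 3 of 10 genes. Over all 19252 protein-coding start sites, first or not, the share was 6.45%. Cp190 had a further copy, not shown, with its first base 21 bp before its inner start site. Each copy at a first start site is shown in capitals on the strand of the gene, because none of them was within 100 bp of an IDR summit of the set. The copy at Cp190 fell just outside that window and was within 200 bp of the summit.
Cp190, first base 4 bp before the start site, chr3R:15275227-15275256: tatcgcatggcTATCGATAgctgccgagcg
CTCF, first base 21 bp before the start site, chr3L:7356716-7356745: accaatcgaacTATCGATAgctggcggtac
mod(mdg4), first base 54 bp before the start site, chr3R:21377437-21377466: atattttaagcTATCGATAtattgtcactt
At Trl, the gene of the protein that binds it, GAGAG had 10 overlapping copies within 100 bp of the innermost start site. It had none that near the other Trl start sites. A count of 10 was reached at 0.197% of 19252 start sites (38). It was the highest count for any of the words at any start site of the 10 genes, so this share is a description. The summit of rank 1017, 109 bp downstream of the innermost start site, had no copy within 100 bp. The densest stretch lay upstream of the start site, outside that peak. It is shown because 8 of the copies overlap in 1 repeat.
Trl, chr3L:14757368-14757397, minus strand: GAGAGAGAGAGAGAGAGAGctaataactaa

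Related genes were described for comparison, from 3 lists of 33 genes in all. Of 9 genes of other insulator DNA-binding proteins (Ibf1, Ibf2, ZIPIC, pita, dwg, insv, Elba1, Elba2 and Elba3) 0 had an IDR peak. A pooled peak was found at 1, pita (signal 89.4, rank 4882), where all 10 genes of the set had one. The replicate 2 list had peaks at 1 of the 9, and the replicate 3 list at 3. In replicate 3 their highest ranks were 2731 for pita, 6031 for ZIPIC and 16236 for dwg. Of 14 genes of insulator, cohesin and condensin partners 6 had an IDR peak and 11 a pooled peak. The IDR peaks were at shep, an RNA-binding modifier of insulators (signal 411, rank 424, the highest of 3 IDR peaks), JIL-1, a histone H3 kinase gene (311, rank 653, the higher of 2), fs(1)h, the BET bromodomain gene (281, rank 767), wapl, a cohesin release factor gene (262, rank 845), and the cohesin subunit genes SMC1 (152, rank 1990) and SA1 (131, rank 2573). SA1, the present symbol of SA, had no peak at all in replicate 2 and was at rank 2136 in replicate 3. Of 10 genes of other promoter-binding factors 4 had an IDR peak and 7 a pooled peak: Adf1 (500, rank 315, the higher of 2 IDR peaks), psq, another GAGA-binding BTB protein gene (263, rank 843), Trf2, a TBP-related factor gene (228, rank 1068, the highest of 4 IDR peaks), and ttk, a BTB repressor gene (135, rank 2424). In all, 10 of 33 (30.3%) had an IDR peak and 19 (57.6%) a pooled peak, where 16.8% and 58.9% of all protein-coding genes did. Among protein-coding genes of up to 5500 bp the shares were 11.1% and 50.7%. The related genes with an IDR peak had a median span of 17984 bp, against 3664 bp for the others. The difference between the lists and the set was not tested.

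**Figure D4:**
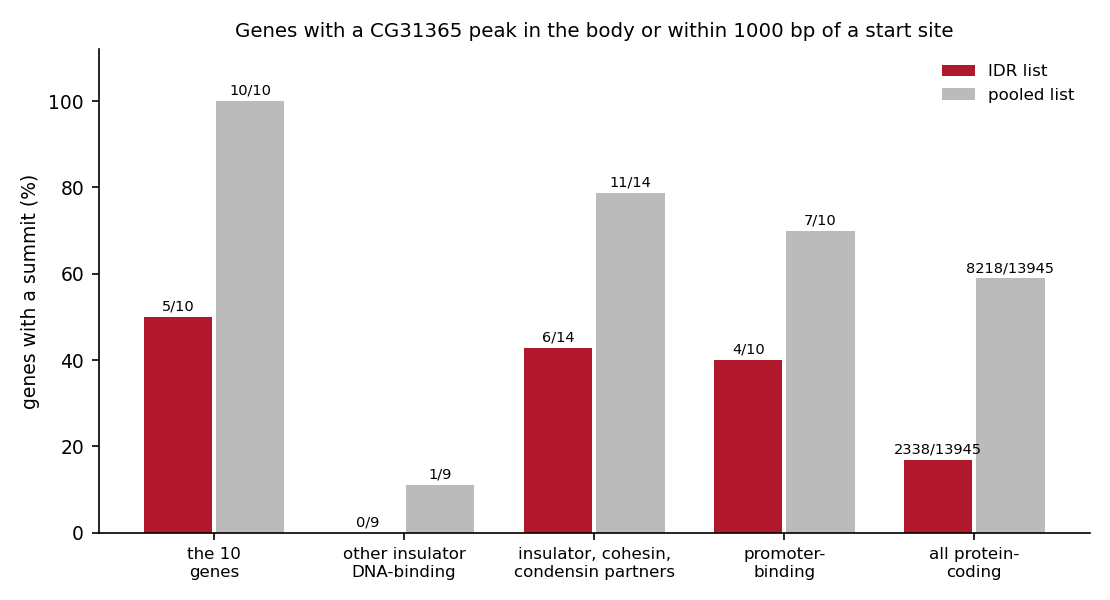
Percent of genes (vertical axis, from 0) with an IDR summit (red) or a pooled summit (grey) in the gene body or within 1000 bp of a start site, for the 10 genes, the 3 related lists and all protein-coding genes, with counts above the bars. The 10 genes stand at 5 of 10 and 10 of 10, the other insulator DNA-binding genes at 0 of 9 and 1 of 9. The insulator, cohesin and condensin partners stand at 6 of 14 and 11 of 14, and the promoter-binding genes at 4 of 10 and 7 of 10.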

How the data were processed

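Chromatin of whole embryos, sheared by sonication (200 to 800 bp, per the labels), was profiled in 2 replicates of 1 group. The authors deposited 4 narrowPeak lists on dm6 (30000 entries for each replicate and for the pooled replicates, and 2821 IDR peaks), made from the alignments and a separate control file, per the deposited listing of files. Peaks were ranked within a list by the signal value that the authors deposited (column 7), and the deposited summit offset (column 10) placed summits. The sources used here give no aligner, peak caller, threshold or depth, so the counting error of each value is unknown.

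Genes came from Ensembl release 115 (BDGP6.54), without transposable elements and pseudogenes, and sequences from RefSeq's Release 6, the same assembly. A summit in the gene body or within 1000 bp of a start site counted, and replicate summits matched within 100 bp. Low-ranked peaks were the 26661 pooled peaks overlapping no IDR peak.

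The genes and lists were chosen with earlier results of these data known, and no test was made: the data hold 1 group, so counts stand beside those of 13945 protein-coding genes. The text names the 10 genes, genes with start sites within 1000 bp of their IDR summits, related genes with an IDR peak, and, for genes without an IDR peak, the highest pooled peak and the nearest IDR summit. Pita and the partners of back-to-back start sites without an IDR peak were added after their values were seen. Gene assignment was tested on simulated data, with 200 genes. Alternatives were TSS windows of 200, 500 and 2000 bp, the upper 50% of IDR peaks, either replicate's own 2821 highest peaks, interval overlap, matching at 50 and 200 bp and word windows of 50 and 200 bp. Python 3.11.15, numpy 2.4.6, pandas 2.3.3, pyfaidx 0.9.0.4 and matplotlib 3.10.9 were used.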

Additional observations from a re-analysis of the deposited data

How the results depend on the processing

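The count of 5 genes with an IDR summit in the body or near a start site stayed at 5 under windows of 200, 500 and 2000 bp, under interval overlap, with repeated intervals merged and with the upper 50% of IDR peaks. It was 5 without replicate 2 and 6 without replicate 3, where pzg was added. With start sites alone it ranged from 4 to 6, and it was 4 at 200 and 500 bp, where the mod(mdg4) summit at 964 bp was left out. The 10 IDR peaks of the set became 8 without replicate 2, 12 without replicate 3, 11 at 2000 bp and 7 with the upper 50%. The share of all protein-coding genes fell from 16.8% to 9.34% with the upper 50% of IDR peaks, a list that holds fewer peaks by construction, and was 13.3% to 19.5% over the windows. Leaving out a replicate gave 16.9% to 17.2%. Related genes with an IDR peak numbered 7 to 12 over the alternatives. Summits matched in both replicates were 6 of 10 within 50 bp and 10 of 10 within 200 bp. Word counts moved with the window: CGATA was at 2 summits within 50 bp and 8 within 200 bp, GAGAG at 5, TGCATA at 2 and DRE at 1 (Cp190) within 200 bp. Pre-mod(mdg4) start sites with an IDR summit, an alternative chosen after seeing the data, were 3 without replicate 2 and 6 without replicate 3. In all, 120 of 131 recomputed values stayed within 1.5 times. These include values of 0 that stayed at 0, such as the IDR peaks at M1BP, BEAF-32, CTCF and su(Hw). No paired analysis was possible because there is 1 group and no comparison between groups. Read depth is unknown, so weak peaks of CTCF, su(Hw), M1BP and BEAF-32 cannot be told from background here.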
